A study of Homo sapiens with 24 samples.

Results

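The 8 genes described here encode amino acid transporters of the plasma membrane: the cationic amino acid transporters SLC7A1, SLC7A2 and SLC7A3, the light chains SLC7A5 and SLC7A6 with their shared heavy chain SLC3A2, and the glutamine carriers SLC1A5 and SLC38A2. They were chosen by name, as 8 of the 29794 genes in the deposited counts, with earlier results of these data known. Each was compared between cells that made a microRNA (miRNA) and the empty vector cells of the same batch. The cells were Flp-In T-REx 293, a human embryonic kidney line, transduced with a lentiviral vector in which doxycycline switches on GFP with a miRNA hairpin in its intron, or with the same vector lacking a hairpin. Every group, the empty vector included, had received doxycycline at 1 µg/mL for 7 days after geneticin selection at 1 mg/mL for 6 days, so the drug was common to all. Batch 1 held 2 RNA-seq libraries each of empty vector, miR-1 and miR-122, and batch 2 held 3 each of empty vector, miR-155, miR-133a and the same-seed miRNAs miR-373, miR-372 and miR-302a, for 24 libraries in 9 groups. Each replicate was a culture transduced on its own. The miRNAs came from a transgene in a kidney line and not from the tissues in which they are usually made.

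The SLC7 family divides into cationic transporters, which carry arginine, lysine and ornithine by themselves, and light chains, which reach the cell surface only when bonded to a heavy chain. SLC7A5 (LAT1) bound to SLC3A2 (4F2hc, CD98) brings leucine and other large neutral amino acids into the cell, and SLC7A6 (y+LAT2) uses the same heavy chain. SLC1A5 (ASCT2) and SLC38A2 (SNAT2) take up glutamine and small neutral amino acids. A miRNA guides Argonaute to mRNAs that pair with its seed, bases 2 to 8 from its 5′ end, mostly in the 3′UTR, and SLC7A1 (CAT1) is a textbook target of miR-122, the abundant miRNA of liver.

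The mature sequences are shown because the seeds, in capitals, define the sites sought in the transporter mRNAs. They were taken from RefSeq (GRCh38.p14), where all 7 were found.
miR-1: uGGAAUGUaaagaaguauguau
miR-122: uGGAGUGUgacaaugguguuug
miR-133a: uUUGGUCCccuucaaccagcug
miR-155: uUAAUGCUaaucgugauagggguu
miR-302a: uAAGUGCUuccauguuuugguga
miR-372: aAAGUGCUgcgacauuugagcgu
miR-373: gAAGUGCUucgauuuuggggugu
The last 3 seeds are the same, whereas the seeds of miR-1 and miR-122 are close to each other but not identical.

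The longest annotated 3′UTR of each gene was searched on its own strand for an 8mer (ACACTCCA for miR-122), a 7mer-m8 (its first 7 letters, ACACTCC) or a 7mer-A1 (its last 7 letters, CACTCCA). The 8mers of the others were ACATTCCA for miR-1, GGACCAAA for miR-133a, AGCATTAA for miR-155 and AGCACTTA for the miR-302a family. Each match was counted once, as the longest type. Which 3′UTR ends these cells use was not examined, so a match may lie outside the mRNA that they make. For miR-122, 4 of the 8 genes held at least 1 match. SLC7A1 (chr13:30083551-30169825, minus strand, GRCh37) held 3 in a 3′UTR of 5066 bases, SLC7A5 (chr16:87863629-87903113, minus strand) 3 in 2947 bases, SLC1A5 (chr19:47278140-47291851, minus strand) 2 in 627 bases, and SLC38A2 (chr12:46751971-46766556, minus strand) 1 in 2923 bases. These sites are shown as mRNA-sense DNA of GRCh37 with the match in capitals, since the results with miR-122 are read beside them.
SLC7A1 8mer, chr13:30087519-30087526: tccatgaaattgtgACACTCCA
SLC7A1 7mer-m8, chr13:30087247-30087253: gcaccatttcacacACACTCCt
SLC7A1 8mer, chr13:30084500-30084507: tggtgcaagaagctACACTCCA
SLC7A5 7mer-A1, chr16:87865171-87865177: caagtggtccagcgtCACTCCA
SLC7A5 7mer-A1, chr16:87864212-87864218: tggtgctgtgtgcccCACTCCA
SLC7A5 8mer, chr16:87864046-87864053: gtccctttttctccACACTCCA
SLC1A5 7mer-m8, chr19:47278231-47278237: ccacaataacagaaACACTCCc
SLC1A5 7mer-A1, chr19:47278184-47278190: acaaatacctgctgtCACTCCA
SLC38A2 7mer-A1, chr12:46753014-46753020: taattgggctttaggCACTCCA
Outside the 3′UTRs, the SLC1A5 5′UTR held an 8mer at chr19:47291399-47291406 and the SLC7A3 open reading frame a 7mer-A1 at chrX:70146765-70146771.
SLC1A5 5′UTR 8mer: cctggggaatttaaACACTCCA
SLC7A3 open reading frame 7mer-A1: actcaactccatcccCACTCCA

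Such matches were common among all genes. Of the 13191 genes tested in batch 1 with an annotated 3′UTR, 25.7% held at least 1 miR-122 match, 7.75% at least 2 and 2.55% at least 3. Among 3′UTRs within 20% of the length of that of SLC7A1, 7.34% of 1213 held at least as many matches as it did. The corresponding shares were 2.31% of 1995 for SLC7A5, 1.04% of 1250 for SLC1A5 and 35.1% of 2003 for SLC38A2. The SLC7A1 matches began at bases 1091, 1364 and 4110 of its 3′UTR, and both SLC1A5 matches lay near the end of its short 3′UTR, at bases 530 and 577. The 3′UTRs of SLC7A3 (234 bases) and SLC3A2 (566 bases) held no match to any of the 7 miRNAs.

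**Figure D1:**
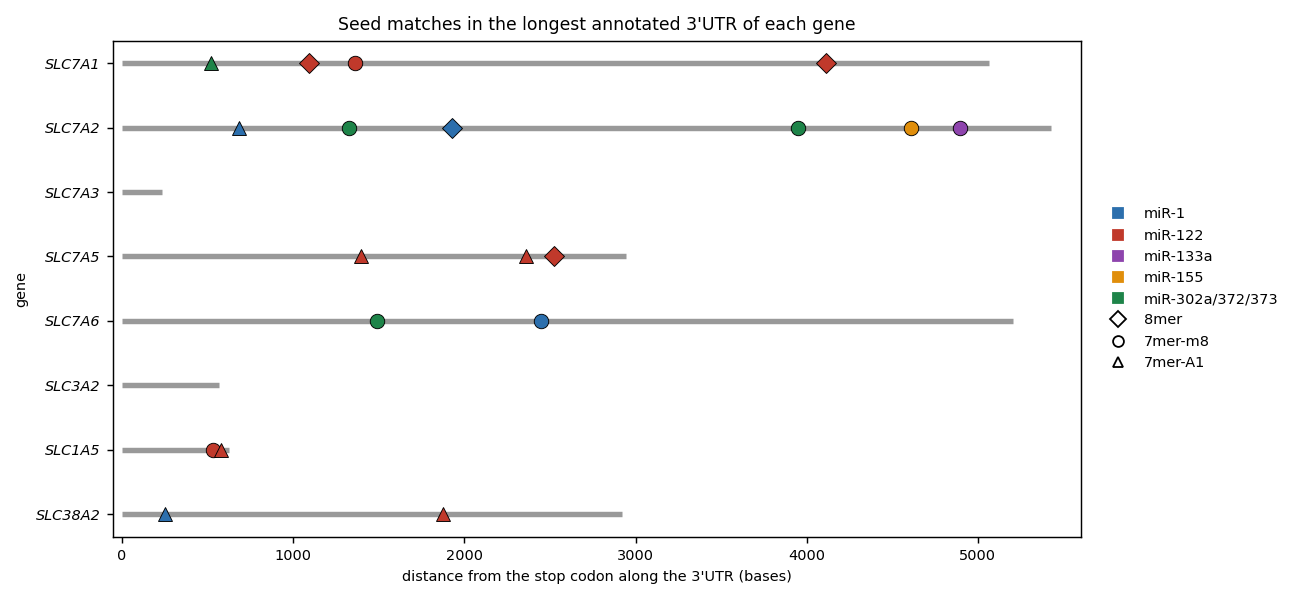
Each grey line is the longest annotated 3′UTR of a gene, with distance from the stop codon in bases on the x axis; the color of a symbol gives the miRNA or seed family and its shape the type of match. SLC7A1, SLC7A5 and SLC1A5 hold 3, 3 and 2 miR-122 matches, and SLC7A2 holds matches to miR-1, miR-133a, miR-155 and the miR-302a family but none to miR-122.

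For the libraries as a whole, exon counts summed to between 20153452 and 21595191 reads in batch 1 and between 13047400 and 35040778 in batch 2. Levels are given as CPM, counts relative to the TMM-scaled library size. The biological coefficient of variation, the spread between replicates that edgeR estimated over all genes, was 0.0310 in batch 1 and 0.0966 in batch 2, so batch 1 could resolve smaller changes despite having fewer replicates. In batch 2, replicate 2 of miR-155, of miR-302a and of miR-372 stood apart from the other replicates of its group, and comparing their counts gave chi-square values over degrees of freedom of 17.8 and 20.2, of 15.2 and 15.7, and of 16.6 and 33.6, against 2.38, 3.61 and 6.71 between the other replicates. Results that rest on these libraries are given with and without them. Established targets of each miRNA were lower in its group, among them the miR-122 target ALDOA (log2 fold change -0.47 ± 0.0417, SE), TWF1 with miR-1 (-1.99 ± 0.0771), TAGLN2 with miR-133a (-1.95 ± 0.0920), BACH1 with miR-155 (-1.11 ± 0.0895) and JARID2 with miR-155 (-1.16 ± 0.112). LATS2 was lower with miR-302a (-0.85 ± 0.152), miR-372 (-1.08 ± 0.153) and miR-373 (-0.80 ± 0.149). Of the markers of the line, VIM was at 908 CPM or more and ENO2 at 75.2 CPM or more in every library, PAX2 at 5.28 or more and NEFM at 1.26 or more. All 13 markers of hepatocytes, muscle and lymphocytes had at most 36 reads in any library (1.43 CPM at most, for DES), with ALB, the defining hepatocyte gene, at 0 to 5 reads. NEFM of the line was low as well, at 27 to 67 reads, so its range overlapped that of DES. The line markers NEFL and LHX1 had no matched identifier.

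All 8 transporters passed the filter on low counts in both batches. Compared per length (CPM per kb of the feature length deposited with the counts), SLC1A5 had the highest level in empty vector cells, at 174 ± 2.71 in batch 1 (SD, n = 2) and 191 ± 10.2 in batch 2 (SD, n = 3). SLC38A2 followed at 62.8 ± 0.0266 and 66.1 ± 3.50 CPM per kb. SLC3A2 was at 46.9 ± 0.306 in batch 1 and 45.9 ± 1.96 in batch 2. SLC7A5, at 44.5 ± 0.0433 and 44.9 ± 7.25, could not be separated from SLC3A2 in batch 2, where the ranges overlapped. Of the cationic transporters, SLC7A1 was at 27.7 ± 1.22 and 25.7 ± 3.30 CPM per kb and SLC7A2 at 21.8 ± 1.58 and 21.7 ± 1.04. The light chain SLC7A6 followed at 14.6 ± 0.185 and 12.3 ± 0.260. SLC7A3 lay far below the others, at 0.539 ± 0.0832 and 0.862 ± 0.116 CPM per kb, with 23 to 34 reads per empty vector library. With the length of all annotated exons in place of the deposited length, SLC3A2 came to 23.4 and 22.9 CPM per kb, which places it below SLC7A5 and SLC7A1, whereas the order of the other genes stayed the same.

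**Figure D2:**
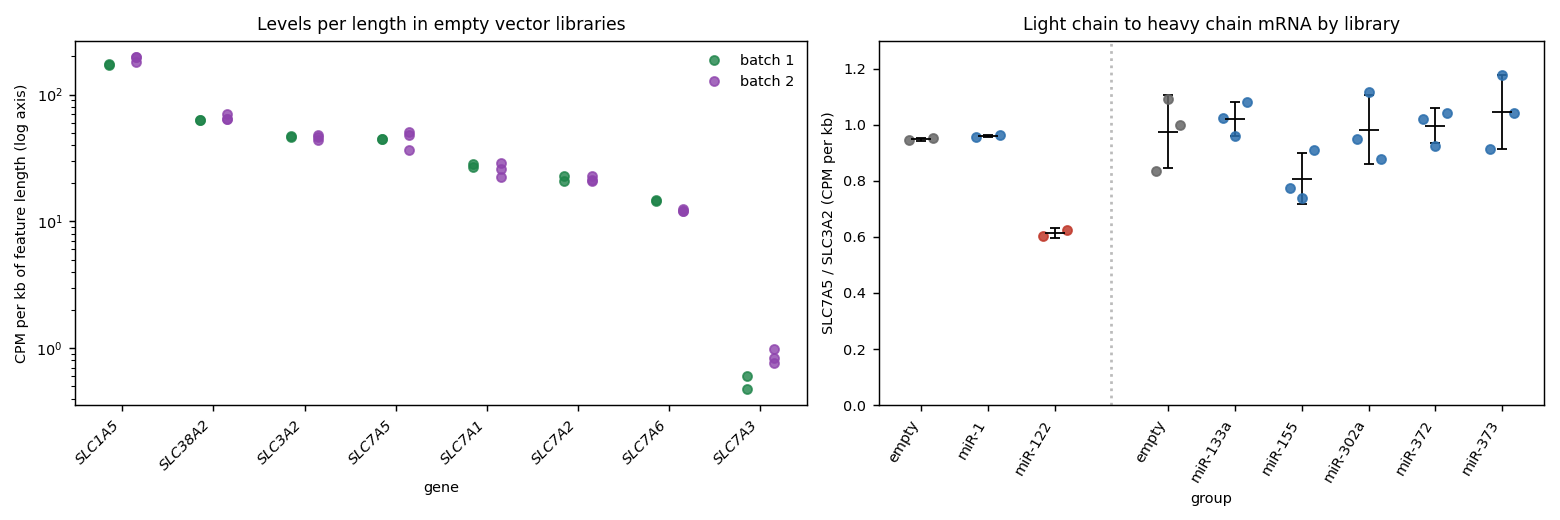
Left, levels in CPM per kb of feature length (log axis) of each gene in the 5 empty vector libraries, colored by batch; right, SLC7A5 divided by SLC3A2, both per length, in each library, with the mean and SD of each group. SLC1A5 lies above and SLC7A3 below all other genes, and the miR-122 libraries have ratios of 0.602 and 0.626 against 0.945 and 0.953 with empty vector.

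The comparison of miR-122 with empty vector asks which of the transporters the liver miRNA changes in these cells. SLC7A1, SLC7A5 and SLC1A5 fell and the other 5 genes did not pass the test, so 3 of 8 genes were called (adjusted p under 0.05), all lower, where 5.92% of the 14348 genes tested were called (4.06% lower, 1.86% higher). The 8 genes were chosen with earlier results of these data known, so the shares are set side by side only as description. The median change of the 8 genes was -0.050 on the log2 scale, and that of all genes tested 0.00. In RNA from whole cultures, less transcript in every cell and a larger share of cells with little transcript cannot be told apart.

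SLC7A1, the main arginine and lysine transporter of most dividing cells, was at 212 and 199 CPM in the empty vector libraries and at 124 and 129 CPM in the miR-122 libraries. Both miR-122 libraries were therefore below both controls, and SLC7A1 fell by 38.4% (log2 fold change -0.70 ± 0.0456, adjusted p = 1.5e-09, edgeR quasi-likelihood test). The change of SLC7A1 was the 179th lowest of the 14348 genes. In the miR-1 libraries of the same batch it was at 210.4 and 201 CPM, within the range of the controls.

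SLC7A5, the LAT1 light chain, was at 204 and 204 CPM in the empty vector libraries and at 132 and 129 CPM with miR-122. It fell by 36.1% (log2 fold change -0.65 ± 0.0423, adjusted p = 1.5e-09), and with miR-1 it was at 214 and 204 CPM. A part of its sequence is shared with the pseudogenes SLC7A5P1 and SLC7A5P2, and at the mapping quality required by the authors, reads that align equally well to one of them would not be expected among its counts.

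SLC1A5, the ASCT2 glutamine carrier, changed most. It was at 572 and 585 CPM in the empty vector libraries and at 233 and 225 CPM with miR-122, and no other group of either batch came below 544 CPM. It fell by 60.4% (log2 fold change -1.34 ± 0.0393, adjusted p = 6.3e-15), the 23rd lowest of all genes tested. These 3 genes were the ones with 2 or more miR-122 matches in the 3′UTR. SLC38A2, with a single 7mer-A1 match, was at 314 and 314 CPM in the controls and at 294 and 311 CPM with miR-122, a log2 fold change of -0.06 whose 95% interval ran from -0.14 to 0.03.

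The heavy chain SLC3A2 was at 150.1 and 149 CPM with empty vector and at 152 and 144 CPM with miR-122, and its log2 fold change of -0.02 had an interval from -0.11 to 0.08. The level of its light chain SLC7A5 relative to SLC3A2, both per length, was accordingly 0.945 and 0.953 in the empty vector libraries, 0.958 and 0.964 with miR-1, and 0.602 and 0.626 with miR-122. In batch 2 this ratio ranged from 0.739 to 1.18, so the miR-122 libraries had the lowest ratios of all 24. With the other light chain added, SLC7A5 plus SLC7A6 came to 1.26 times SLC3A2 in each empty vector library of batch 1 and to between 0.903 and 0.950 with miR-122. The SLC7A5 to SLC3A2 ratio depends on the lengths used, but its order between libraries does not.

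The second light chain, SLC7A6, was at 101 and 99.6 CPM with empty vector and at 98.5 and 100.3 CPM with miR-122 (log2 fold change -0.02, interval -0.12 to 0.09). SLC7A2 was at 182 and 164 CPM in the controls and at 166 and 169 CPM with miR-122 (log2 fold change -0.04, interval -0.14 to 0.06). SLC7A1 thus made up 54.8% and 55.8% of the per-length level summed over the 3 cationic transporters with empty vector, and 43.8% and 44.1% with miR-122. SLC7A3, at 23 to 28 reads per library, allowed only a wide interval, from -0.57 to 0.61.

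**Figure D3:**
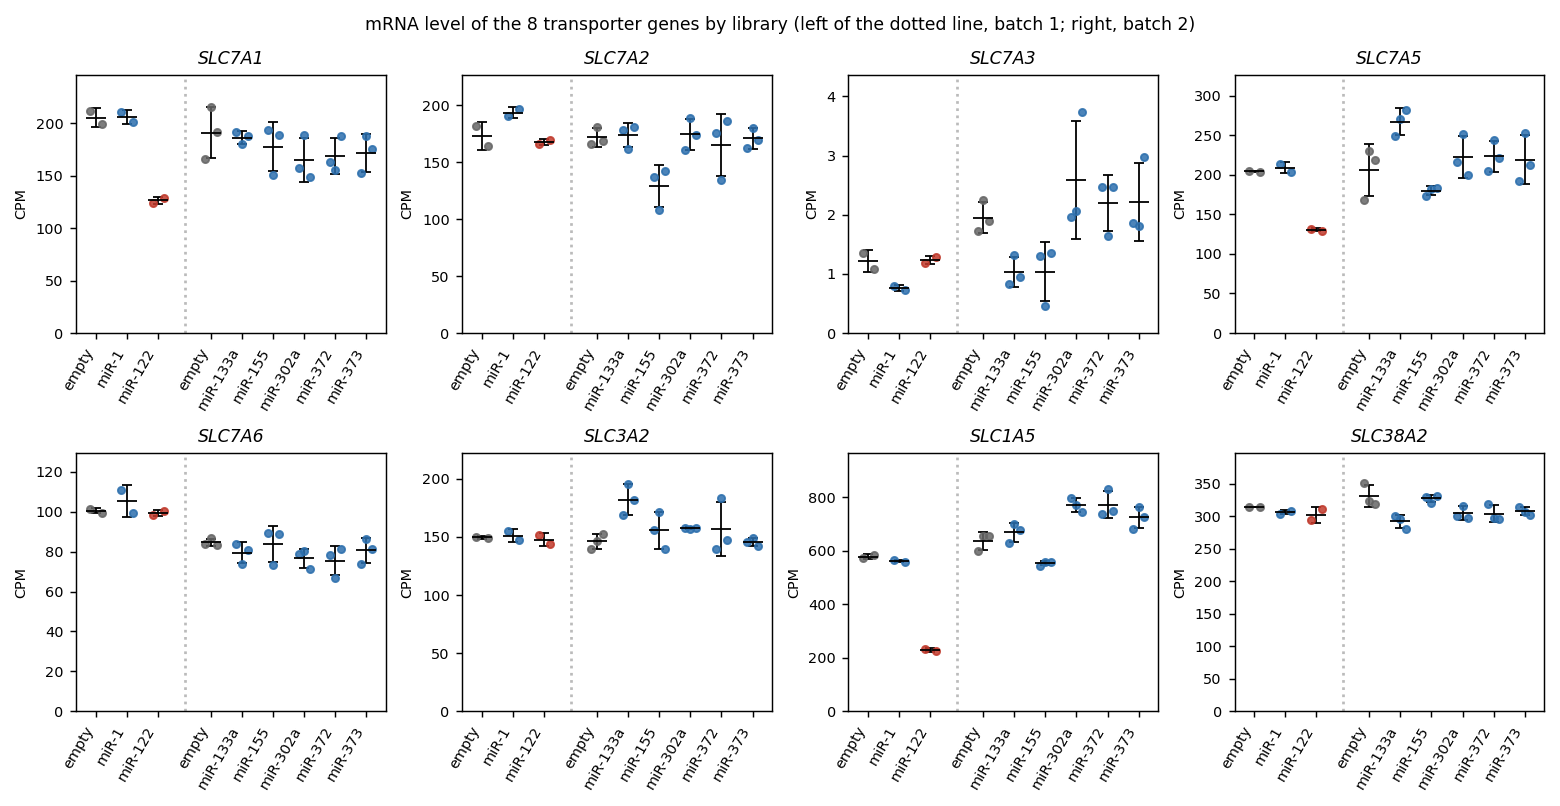
CPM of each transporter gene in every library (points), with the mean and SD of each group; batch 1 is left of the dotted line, batch 2 right, and miR-122 is in red. For SLC7A1, SLC7A5 and SLC1A5 both miR-122 libraries lie below every other library, and for SLC7A2 the 3 miR-155 libraries lie below the 3 empty vector libraries of their batch.

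With miR-1, the muscle miRNA whose seed resembles that of miR-122, 1 of the 8 genes was called, where 24.5% of all genes tested were called (13.7% lower, 10.8% higher). The gene was SLC7A2, at 182 and 164 CPM with empty vector and at 190.0 and 197 CPM with miR-1. It rose by 11.9% (log2 fold change 0.16 ± 0.0473, adjusted p = 0.017), although its 3′UTR held an 8mer and a 7mer-A1 to miR-1. The call was lost without empty vector replicate 2, without miR-1 replicate 1 and without miR-1 replicate 2 (highest adjusted p = 0.14), and the control libraries differed from each other by more than the nearest control and miR-1 libraries did. SLC7A1, SLC7A5, SLC3A2, SLC1A5, SLC7A6 and SLC38A2 had log2 fold changes between -0.04 and 0.07 with miR-1. SLC7A6 and SLC38A2 hold 1 miR-1 match each, as at least 1 did in 24.1% of the 3′UTRs of genes tested. SLC7A3, with 15 to 17 reads against 23 to 28, had a log2 fold change of -0.68 ± 0.312 (adjusted p = 0.12).

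Set directly against miR-122, miR-1 libraries had higher SLC7A1 (log2 fold change 0.70 ± 0.0456, adjusted p = 5.2e-10), SLC7A5 (0.68 ± 0.0422, adjusted p = 3.0e-10), SLC1A5 (1.29 ± 0.0393, adjusted p = 9.1e-15) and SLC7A2 (0.21 ± 0.0474, adjusted p = 0.0025). That was 4 of 8 genes, all higher with miR-1, beside 31.2% of all genes called (16% lower, 15.2% higher). The other 4 genes did not pass the test. This comparison shares the miR-122 libraries with the one above.

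With miR-155, a miRNA of activated lymphocytes, 1 of 8 genes was called, where 7.63% of the 14054 genes tested were called (4.81% lower, 2.82% higher). SLC7A2 was at 165, 181 and 169 CPM with empty vector and at 137, 108 and 142 CPM with miR-155. The groups did not overlap, and SLC7A2 fell by 25.0% (log2 fold change -0.41 ± 0.112, adjusted p = 0.028). Its 3′UTR of 5427 bases held a 7mer-m8 to miR-155 at base 4608, and 19.2% of the 3′UTRs of genes tested held a match. Leaving out any of the 3 empty vector libraries, or miR-155 replicate 2, raised the adjusted p above 0.05 (range over all 6 libraries left out in turn, 0.024 to 0.15). Without miR-155 replicate 2, which stood apart, the log2 fold change was -0.30 (adjusted p = 0.15). SLC7A1 was at 193, 151 and 189 CPM with miR-155, within or below the 166, 215 and 191 CPM of the controls, and its log2 fold change was -0.10 ± 0.116 (adjusted p = 0.62). SLC1A5, at 544, 558 and 558 CPM, lay below the 597, 656 and 656 CPM of its controls without passing the test (log2 fold change -0.20, adjusted p = 0.099). It passed with the replicate block (adjusted p = 0.048) and with DESeq2 (0.041), and it did not with any library left out (0.085 to 0.31). SLC7A5 had a log2 fold change of -0.20 ± 0.117 (adjusted p = 0.32), and SLC7A6, SLC3A2 and SLC38A2 lay between -0.02 and 0.09. SLC7A3 had 6 to 20 reads with miR-155 (log2 fold change -0.89 ± 0.364, adjusted p = 0.14). SLC7A1 made up 57.9% to 59.5% of the summed cationic transporter level with miR-155, and 50.8% to 54.8% with empty vector.

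The embryonic stem cell miRNAs miR-302a, miR-372 and also miR-373 share a seed, and all 3 were compared with the same empty vector libraries. SLC1A5 was at 797, 771 and 743 CPM with miR-302a, at 738, 832 and 747 CPM with miR-372 and at 683, 763 and 727 CPM with miR-373. All 9 libraries were above the highest control at 656 CPM. It rose with miR-302a by 21.0% (log2 fold change 0.28 ± 0.0734, adjusted p = 0.026) and with miR-372 by 21.3% (0.28 ± 0.0734, adjusted p = 0.019), whereas with miR-373 the log2 fold change was 0.19 ± 0.0733 (adjusted p = 0.17). That was 1 of 8 genes called with miR-302a, beside 7.88% of all genes (4.85% lower, 3.02% higher). With miR-372 it was also 1 of 8, beside 11.4% (6.56% lower, 4.82% higher), and with miR-373 it was 0 of 8 by edgeR, beside 5.13% (3.3% lower, 1.83% higher). At an unadjusted p under 0.05, SLC1A5 was the only 1 of the 8 transporters to pass with miR-373, where 2487 of the 14054 genes tested passed.

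The SLC1A5 calls rested on few libraries. With miR-302a the call was lost when any empty vector library, miR-302a replicate 1 or miR-302a replicate 3 was left out (adjusted p 0.037 to 0.12), and with miR-372 when empty vector replicate 1 or miR-372 replicate 2 was left out (0.023 to 0.092). Without miR-372 replicate 2, which stood apart, the log2 fold change was 0.22 (adjusted p = 0.091), and without miR-302a replicate 2 that with miR-302a was 0.27 (adjusted p = 0.037). Between these miRNAs no transporter was called, and edgeR called 0% of genes in each of the 3 direct comparisons (at most 184 genes at an unadjusted p under 0.05). The SLC1A5 difference between miR-302a and miR-373 was 0.09 with an interval from -0.06 to 0.24. SLC1A5 holds no match to the shared seed. SLC7A1, SLC7A2 and SLC7A6 hold 1, 2 and 1, and their log2 fold changes with the 3 miRNAs ran from -0.21 to -0.15, from -0.05 to 0.02 and from -0.16 to -0.07, none of which passed the test. For SLC7A1 the interval with miR-302a ran from -0.45 to 0.03. At least 1 match to this seed stood in 30.1% of the 3′UTRs of genes tested. Across the same 3 miRNAs SLC7A5 lay at 0.09 to 0.12, SLC3A2 at -0.01 to 0.11, SLC38A2 at -0.12 to -0.11 and SLC7A3 at 0.19 to 0.38 on the log2 scale, and none passed the test.

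With miR-133a, the second muscle miRNA, 0 of 8 genes were called by edgeR, where 5.34% of genes tested were called (3.97% lower, 1.37% higher). At an unadjusted p under 0.05, 4 of the 8 passed, where 2873 of the 14054 genes tested did. Other tests called up to 3, with DESeq2 (7.33% of all genes called) and with only the groups compared (17.3%). SLC3A2 was at 169, 195 and 182 CPM with miR-133a and at 140, 147 and 152 CPM with empty vector, a log2 fold change of 0.31 ± 0.0926 (adjusted p = 0.053). SLC7A5 was at 249, 270.0 and 282 CPM against 168, 230 and 219 CPM, a log2 fold change of 0.38 ± 0.117 (adjusted p = 0.068). Heavy and light chain were thus each above all 3 controls in all 3 miR-133a libraries, and their ratio, from 0.960 to 1.08, overlapped that of the controls, from 0.835 to 1.09. SLC38A2 and SLC7A3 were below all 3 controls in all 3 libraries. The share of all genes whose groups separate in this way was not computed. SLC38A2 was at 300, 295 and 281 CPM against 351, 323 and 319 CPM (log2 fold change -0.18 ± 0.0640, adjusted p = 0.11). SLC7A3 had 11 to 18 reads against 23 to 34 (log2 fold change -0.92 ± 0.367, adjusted p = 0.16). None of these 4 genes holds a miR-133a match in the 3′UTR. SLC7A2, which holds a 7mer-m8, was at 0.01 ± 0.111 on the log2 scale, with an interval from -0.22 to 0.25, and SLC7A1, SLC7A6 and SLC1A5 lay between -0.09 and 0.07. The open reading frame of SLC7A1 held an 8mer and a 7mer-A1 to miR-133a, and that of SLC1A5 a 7mer-m8.

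**Figure D4:**
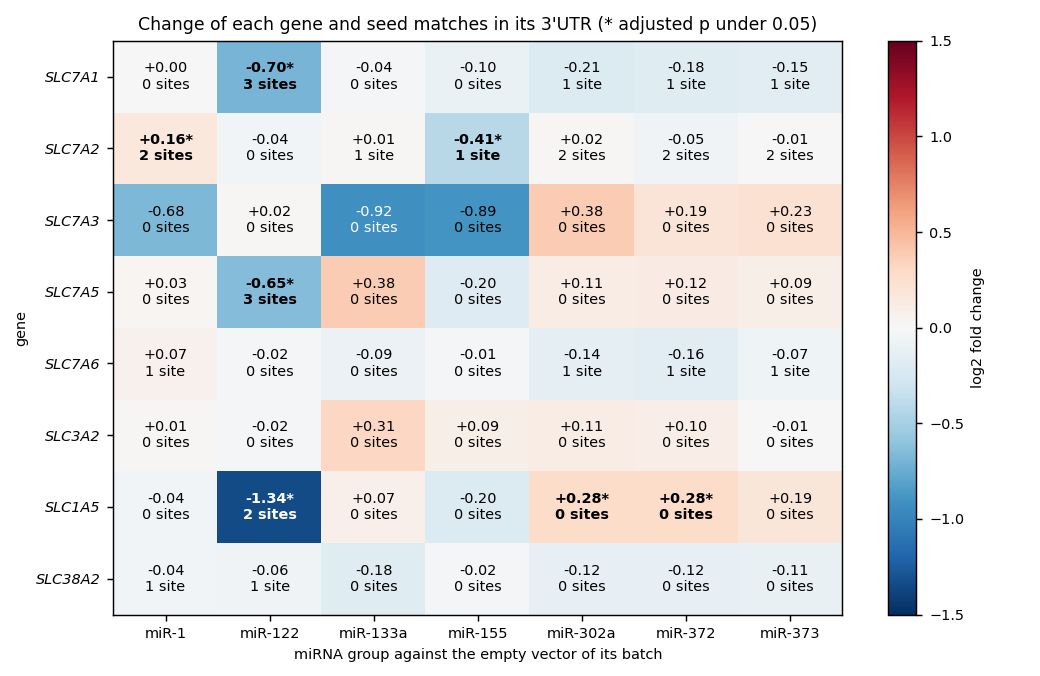
Log2 fold change of each gene (rows) with each miRNA (columns) against the empty vector of its batch, with the number of seed matches in the 3′UTR beneath; bold values with an asterisk had an adjusted p under 0.05. The strongest called cells are SLC1A5, SLC7A1 and SLC7A5 with miR-122, and the large values of SLC7A3 rest on few reads and were not called.

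Over all 56 pairs of a gene and a miRNA, 18 had at least 1 match in the 3′UTR. Of these, 4 were called lower and 1 higher, and 13 were not called. Of the 38 pairs without a 3′UTR match, 0 were called lower by edgeR and 2 higher. Some of these hold a match in the open reading frame instead. They are SLC7A1 (8mer and 7mer-A1) and SLC1A5 (7mer-m8) with miR-133a, SLC38A2 (7mer-A1) with miR-155 and SLC7A3 (7mer-A1) with miR-122. None of those was called. The 56 pairs are not independent, since genes recur across miRNAs and the same-seed miRNAs share their matches. The 3 genes lower with miR-122 are among the 4 pairs called lower. Per miRNA, 3.3% (miR-373) to 13.7% (miR-1) of all genes tested were called lower, and 1.37% (miR-133a) to 10.8% (miR-1) higher. The shares among all genes with and without a match were not computed, so the split gives no comparison with other genes.

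Whether the drop with miR-122 differed from the changes in the other batch was tested in a fit of all 24 libraries, as the change with miR-122 minus the change with each miRNA of batch 2, each against its own control. The fit estimates 1 spread per gene over both batches, although the coefficient of variation was 0.0310 in batch 1 and 0.0966 in batch 2. SLC1A5 differed in all 5 comparisons, by -1.40 from miR-133a, -1.13 from miR-155, -1.61 from miR-302a, -1.62 from miR-372 and -1.52 from miR-373 (log2 differences, highest adjusted p = 4.7e-07). SLC7A5 differed from miR-133a (-1.02, adjusted p = 0.00073), miR-302a (-0.76, adjusted p = 0.014), miR-372 (-0.77, adjusted p = 0.010) and miR-373 (-0.73, adjusted p = 0.020). The last 3 of these calls were lost in 4, 3 and 5 of the 10 fits that left out a library (highest adjusted p = 0.093, 0.070 and 0.12). Without either miR-122 library, or without empty vector replicate 2 of batch 1, all 3 were lost. Without empty vector replicate 1 of batch 1 those from miR-302a and miR-373 were lost, and without miR-373 replicate 2 that from miR-373. From miR-155 it differed by -0.45, with an interval from -0.80 to -0.10 and an adjusted p of 0.21. These make, with SLC7A1, 3 genes called against miR-133a, 1 against miR-155 and 2 against each of the same-seed miRNAs, where 2.38%, 2.78%, 2.5%, 3.29% and 2.15% of 14383 genes were called (in the order of the SLC1A5 values above).

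In the quasi-likelihood test SLC7A1 differed beyond the threshold from miR-133a only (-0.66, adjusted p = 0.030), and this call was lost in 9 of the 10 fits that left out a library, with empty vector replicate 2 of batch 2 the exception (adjusted p 0.017 to 0.17). It differed by -0.59 from miR-155 and by -0.49, -0.52 and -0.54 from miR-302a, miR-372 and then miR-373 (adjusted p = 0.054, 0.14, 0.090 and 0.10), with every 95% interval below 0. With the likelihood ratio test SLC7A1 also passed against miR-155 (adjusted p = 0.020), miR-372 (0.049) and miR-373 (0.048), and not against miR-302a (0.090). The wider spread of SLC7A1 in batch 2, where its empty vector libraries ran from 166 to 215 CPM, enters these tests. The SE of its difference from miR-133a was 0.165. Within their own batches, the SE was 0.0456 for the change with miR-122 and 0.116 for that with miR-133a. For miR-1, the change of SLC7A2 exceeded that with miR-155 by 0.58 (adjusted p = 0.031), 1 gene called where 5.37% of all genes were, and it was lost in 7 of 10 fits that left out a library (adjusted p 0.022 to 0.20). No transporter was called between miR-1 and the other 4 miRNAs of batch 2, where 3.24% (miR-133a), 4.35% (miR-302a), 5.35% (miR-372) and 3.4% (miR-373) of genes were.

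**Figure D5:**
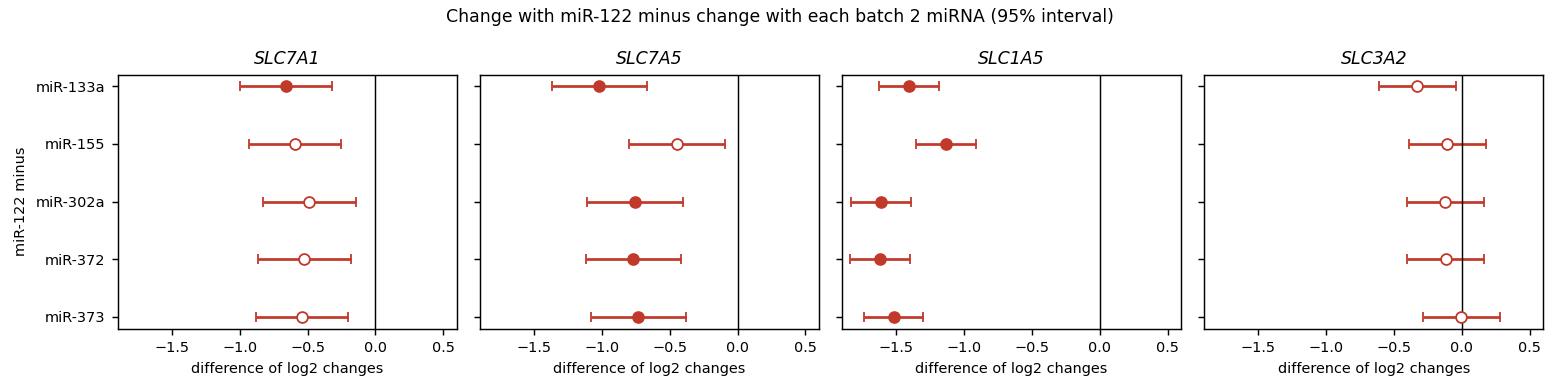
Change with miR-122 minus the change with each batch 2 miRNA on the log2 scale (x axis), with 95% intervals; filled points had an adjusted p under 0.05. SLC1A5 lies between -1.62 and -1.13 with every interval below 0, SLC7A1 between -0.66 and -0.49, and SLC3A2 between -0.33 and 0.00.

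The genes most like SLC7A1 over the 24 libraries were sought by Pearson correlation of log2 CPM, taken relative to the empty vector libraries of the same batch, among 12337 genes. The highest were PIGS (r = 0.888), OCRL (0.887), GYS1 (0.870), KLHL18 (0.865) and RERE (0.865). All 5 were lower with miR-122, by 1.19, 0.69, 0.86, 0.42 and 0.34 on the log2 scale, and hold 1, 2, 3, 1 and 2 miR-122 matches. At least 1 such match stood in 25.7% of the 3′UTRs of genes tested in batch 1. The miR-122 libraries weigh most in the pattern by which the 5 were picked, so their drop is no separate result. SLC7A5 was 86th (r = 0.686) and SLC1A5 131st (r = 0.639). The points share libraries, depth and controls, and 2 libraries of 1 group set most of the range, so the values only describe likeness.

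The other genes of amino acid transport and use are given as lists. Of 9 genes that comprise further SLC7 family members and the second heavy chain SLC3A1, 3 were tested in batch 1 and 4 in batch 2. The only call against empty vector was SLC7A11, the cystine carrier, lower with miR-1 (-0.40 ± 0.0581, adjusted p = 5.6e-05). That was 33.3% of the genes tested in this list, beside 24.5% of all genes. Of 34 other amino acid transporters, 32 were matched and 20 tested in batch 1 and 19 in batch 2. With miR-122, 2 were lower and 1 higher, including SLC43A2, a leucine facilitator (-0.46 ± 0.0914), and SLC6A9, the glycine transporter GLYT1 (0.28 ± 0.0631). With miR-1, 3 were lower and 2 higher, and SLC6A9 was lower (-0.51 ± 0.0683) and the glutamate transporter SLC1A3 higher (0.36 ± 0.0493). In batch 2 between 1 and 3 were called per miRNA, mostly lower. These were 15.8% of the list with miR-133a, 10.5% with miR-155, 10.5% with miR-302a, 15.8% with miR-372 and 5.26% with miR-373. The shares of all genes were 5.34%, 7.63%, 7.88%, 11.4% and 5.13%, in that order. The shares called in this list were 15% with miR-122 and 25% with miR-1, and its medians -0.02 and -0.10, beside the shares of all genes given above and all-gene medians of 0.00.

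All 34 genes listed for ATF4 and the amino acid response, the program that cells switch on when amino acids run short, were tested. With miR-122, 2 were lower and 4 higher (17.6% of the list, beside 5.92% of all genes), with a median log2 fold change of 0.03. They included the mitochondrial folate enzyme MTHFD2 (-1.07 ± 0.0413, adjusted p = 3.1e-13) and DDIT4, an inhibitor of mTORC1 (0.28 ± 0.0532, adjusted p = 0.0019). With miR-1, 9 were lower and 3 higher (35.3%, beside 24.5% of all genes), with a median of -0.07, and the serine synthesis enzyme PSAT1 (-0.52 ± 0.0436) and the transcription factor ATF5 (-0.50 ± 0.125) changed most. The other miRNAs had 0 to 3 calls in this list. These were 2.94% with miR-133a, 8.82% with miR-155, 5.88% with miR-302a, 8.82% with miR-372 and 0% with miR-373. The shares of all genes were 5.34%, 7.63%, 7.88%, 11.4% and 5.13%, in that order.

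Of 26 genes of amino acid sensing by mTORC1, 25 were tested, and each miRNA had 1 to 4 calls. In batch 2 the shares were 12% with miR-133a, miR-155 and miR-302a (5.34%, 7.63% and 7.88% of all genes). They were 16% with miR-372 (11.4% of all genes) and 4% with miR-373 (5.13%). With miR-122, 1 was lower and 2 were higher (12% beside 5.92% of all genes, median 0.02), and with miR-1, 0 were lower by edgeR and 3 higher (12% beside 24.5% of all genes, median 0.06). With miR-1, the Rag GTPase RRAGA (0.24 ± 0.0524) and the GATOR1 subunit NPRL2 (0.22 ± 0.0734) were higher, and with miR-372, SESN3, a sestrin (-0.45 ± 0.100), and the GATOR1 subunit NPRL3 (-0.36 ± 0.110) were lower. Of 19 genes of arginine and polyamine metabolism, 18 were tested in batch 1 and 17 in batch 2. With miR-122, 2 were lower and 1 higher (16.7% beside 5.92% of all genes, median 0.02), among them NOS1, a nitric oxide synthase (-1.07 ± 0.226), and OAZ1, the antizyme that limits polyamine synthesis (-0.22 ± 0.0381). With miR-1, 5 were lower and 4 higher (50% beside 24.5% of all genes, median 0.09), among them OAT, ornithine aminotransferase (-0.61 ± 0.0460), and NOS1 (-0.79 ± 0.215). In batch 2 this list had at most 2 calls per miRNA. They came to 0% of the list with miR-133a, miR-302a and miR-373 (5.34%, 7.88% and 5.13% of all genes). With miR-155 they came to 5.88% (7.63% of all genes) and with miR-372 to 11.8% (11.4%).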

How the data were processed

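RNA-seq was performed on 24 libraries, each from 1000 ng of total RNA per the labels. Per the study's methods and the labels, the authors trimmed reads, aligned them to hg19 with TopHat (2.1.1) and counted them by strand over exons with featureCounts at a mapping quality of at least 50. The authors deposited these as raw counts per gene, 1 table per batch, with a feature length column that was used here for levels per kb. The authors also deposited 14 tables of their own comparisons (log2 fold changes, mean log2 CPM, test statistics, p-values and q-values), which were not used.

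Groups came from the labels. Counts were analyzed in R (4.3.3) with edgeR (4.0.16): per batch, filterByExpr (minimum count 10), TMM, and a quasi-likelihood fit of all groups (14348 and 14054 genes). Tests were two-sided, the Benjamini-Hochberg adjustment ran over all genes of a comparison, and calls needed an adjusted p under 0.05. A prior count of 0.125 entered the fold changes, and SE is the log2 fold change over the root of F. A joint fit of 14383 genes tested differences between batches. Of 29794 identifiers, 28543 matched GENCODE on GRCh37, the sequence of hg19, in which sites were searched. Replicate counts differed by more than sampling noise (chi-square per degree of freedom 1.79 to 33.6 over 21 pairs). Functions were tested on simulated counts. The transporters named, the lists and their tests were chosen with earlier results of these data known. From each list, the text names the 2 called genes of largest change in each of the 2 miRNA comparisons with most calls (ties in the order listed). Alternatives were DESeq2 (1.42.0), a likelihood ratio test, other filters, the compared groups only, a replicate block and leaving out each library.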

Additional observations from a re-analysis of the deposited data

How the results depend on the processing

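The miR-122 count of 3 transporters and the count of 4 between miR-1 and miR-122 stayed the same under all alternatives run and with each library left out. The drop of SLC7A1 with miR-122 lay between -0.74 and -0.65 (log2) with a library left out, that of SLC7A5 between -0.66 and -0.63 and that of SLC1A5 between -1.36 and -1.31. In batch 1 such fits leave 1 library in a group, which is assumed to vary like the others. For miR-133a, the count of 0 (5.34% of all genes called) became 2 with the likelihood ratio test (7.34%) or without a filter (4.21%). It became 1 with more than 1 CPM in every library (6.53%), and 3 with DESeq2 (7.33%) or with only the groups compared (17.3%). For miR-155, 1 (7.63% of all genes) became 2 with DESeq2 (10.1%). For miR-302a, 1 (7.88%) became 0 without a filter (5.43%). For miR-372, 1 (11.4%) became 0 with only the groups compared (5.95%). With a library left out, the counts for miR-155 (3.48% to 6.98% of all genes), miR-302a (3.38% to 12.4%) and miR-372 (6.03% to 12.9%) ranged from 0 to 1. Among differences between batches, the likelihood ratio test turned 1 into 2 for miR-122 minus miR-155 (2.78% and 3.73% of all genes called). It turned 2 into 3 for miR-122 minus miR-372 (3.29% and 4.78%) and minus miR-373 (2.15% and 3.34%). SLC7A1 was the gene added each time. With a library left out these counts ranged from 2 to 3 for miR-122 minus miR-133a, from 1 to 2 for miR-122 minus miR-155, miR-302a, miR-372 or miR-373, and from 0 to 1 for miR-1 minus miR-155. The cause of these shifts was not tested.

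Replicate numbers did not pair miRNA and empty vector libraries by the rule that all same-number correlations of deviations exceed 0.1. The replicate block, however, raised the share of all genes called against empty vector with every batch 2 miRNA. The shares went from 5.34% to 9.31% (miR-133a), from 7.63% to 11.8% (miR-155) and from 11.4% to 16% (miR-372). Those of miR-373 and miR-302a went from 5.13% to 7.98% and from 7.88% to 11.7%. In batch 1 the shares fell, from 24.5% to 20.5% (miR-1) and from 5.92% to 4.57% (miR-122). Whether same-number libraries of batch 2 vary together was not tested further. With the replicate block, the count of transporters called became 2 for miR-133a (SLC7A5 and SLC3A2) and 2 for miR-155 (SLC7A2 and SLC1A5). No other count of transporters changed. SLC7A1 with miR-122 was at -0.70 with the block. Of the same-seed pairs, miR-302a and miR-372 correlated by number in all replicates (0.227, 0.336 and 0.161). In the other pairs replicate 1 did not, with 0.022, 0.575 and 0.386 for miR-302a and miR-373 and 0.056, 0.356 and 0.505 for miR-372 and miR-373. Some replicates of different number correlated as well. Replicate 1 of miR-302a had 0.207 with replicate 3 of miR-372 and 0.388 with replicate 3 of miR-373. A block added after the data were seen called 0 transporters in any of the same-seed pairs.

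Of values that passed in no fit of this kind, leaving out a library turned the sign of some near 0. These were SLC7A1 with miR-1 (-0.036 to 0.049), miR-133a (-0.13 to 0.061) and miR-155 (-0.19 to 0.00018), SLC7A2 with miR-122 (-0.11 to 0.032), miR-133a (-0.017 to 0.063), miR-302a (-0.039 to 0.084), miR-372 (-0.14 to 0.074) and miR-373 (-0.054 to 0.032), and SLC7A3 with miR-122 (-0.13 to 0.18) and miR-373 (-0.097 to 0.36). The same held for SLC7A5 with miR-302a (-0.014 to 0.20), miR-372 (-0.0081 to 0.21) and miR-373 (-0.036 to 0.18), SLC7A6 with miR-1 (-0.012 to 0.15) and miR-155 (-0.058 to 0.073), and SLC3A2 with miR-1 (-0.022 to 0.059), miR-122 (-0.057 to 0.026), miR-372 (-0.026 to 0.18) and miR-373 (-0.040 to 0.021). It also held for SLC38A2 with miR-155 (-0.039 to 0.028), and between miR-1 and miR-122 for SLC38A2 (-0.019 to 0.060) and SLC3A2 (-0.0085 to 0.076). SLC7A3, at 6 to 105 reads per library, could not be resolved.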
